A study of Mus musculus with 6 samples.

Results

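Solute carrier (SLC) genes encode membrane proteins that move nutrients, metals, vitamins, metabolites and ions across the plasma membrane and the membranes of organelles. The members described here were selected on their level, as protein-coding genes whose symbol begins with Slc or Slco and a number and whose mean was at least 1 FPKM over 6 libraries of mouse bone marrow-derived macrophages. FPKM is the number of sequenced fragments per kilobase of gene and per unit of a library divisor. Of 385 protein-coding genes with such a symbol, 153 were members, from 43 of 50 families. A further 132 had values above 0 but a lower mean, and 100 were at 0 in every library. The rule uses the mean over both groups and not the difference between them. All 153 members passed the filter on low values, since the rule is that filter. Of the members, 7 were under 1 FPKM in the CCL3 mean and 3 in the control mean, so that these were carried past the filter by the other group. Among the 7, Slc24a5, Slc39a14, Slc16a6 and Slc19a2 are counted below as lower with CCL3, and since the filter admitted them through their control values, their falls support nothing about the members or their classes. In addition, 4 members are not transporters despite their symbols: Slc9a3r1 and Slc9a3r2 encode scaffold proteins, and Slc4a1ap and Slc7a6os encode proteins of other kinds.

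The data comprised 3 libraries of C57BL/6J bone marrow macrophages given recombinant CCL3, a chemokine, for 3 days after 7 days of culture, and 3 control libraries of such macrophages. Whether CCL3 was also present during the first 7 days can be read either way from the description of the design, and no source used here says how control cells were handled in the last 3 days. The labels give no genetic change for either group and do not say whether replicates came from separate animals or cultures. The p-values therefore measure the spread between these libraries, which may be technical.

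SLC proteins are grouped into numbered families by sequence, and a family often shares a substrate. Macrophages rely on them in several settings: carriers of the lysosome and phagosome return heme, metals, amino acids and nucleosides from digested material to the cytosol, zinc carriers set the metal supply of the secretory pathway, glucose and lactate carriers serve glycolysis, and carriers of the inner mitochondrial membrane link cytosol and matrix. In this account families were put into 10 substrate classes, from amino acids to vitamins, heme and nucleosides.

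Recovered fragments came to 17399194 to 18058494 in CCL3 libraries and 17913283 to 18609737 in control libraries, and the median member had between 457 and 705 fragments in a library. All 8 macrophage markers looked up, among them Adgre1 and Csf1r, were expressed above the filter. They summed to 10705 to 15123 FPKM in CCL3 libraries and 16422 to 28349 FPKM in control libraries, and most of this was the lysozyme gene Lyz2, the 1 marker that fell past the threshold used below. Without Lyz2 the other 7 summed to 2656 to 3006 FPKM in CCL3 libraries and 2172 to 2523 FPKM in control libraries, and Cd68 alone passed, higher with CCL3. Of the lists for other cells, 5 osteoclast markers summed to 44.0 to 53.2 FPKM in CCL3 libraries and 15.5 to 17.5 FPKM in control libraries, with Calcr at 0, and 4 megakaryocyte markers to 38.3 to 51.4 FPKM in CCL3 libraries and 19.2 to 37.4 FPKM in control libraries. The sums were 29.1 to 50.6 FPKM in CCL3 libraries and 18.2 to 37.2 FPKM in control libraries for 7 neutrophil markers, with Ly6g at 0, and 5.25 to 8.24 FPKM in CCL3 libraries and 2.14 to 4.20 FPKM in control libraries for 5 stromal markers. Summed levels were under 5 FPKM in every library for erythroid, T cell, B cell, dendritic cell and mast cell markers. Past the threshold, and higher with CCL3, were Acp5 of the osteoclast list, Ppbp, Itga2b and Gp9 of the megakaryocyte list, S100a8 of the neutrophil list, Col1a1 and Col1a2 of the stromal list, Ccr7 of the dendritic cell list and Hba-a1 of the erythroid list, and 0 markers of these lists were lower. The part of other cells in the results was not tested. On the second principal component control replicate 3 was distant from the rest of its group, with a score of 25.4 against -11.5 and -2.90, and CCL3 replicate 2 lay at the other end, at -21.1. In bulk RNA, fewer cells of a type and less RNA per cell cannot be told apart.

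Expressed SLC genes spanned a wide range of levels. The member with the highest mean was Slc48a1, a heme transporter gene of the phagolysosome, at 253 FPKM over the 6 libraries, ahead of the mitochondrial ADP/ATP carrier gene Slc25a5 at 208 FPKM and Slc25a39, a gene of mitochondrial glutathione import, at 156 FPKM. In all, 9 members had a mean of at least 100 FPKM, 56 were between 10 and 100 FPKM and 88 were under 10 FPKM. The median member stood at 6.61 FPKM, against 6.96 FPKM for all 9218 genes tested. Summed over the 153 members, the level was 3933, 3578 and 4113 FPKM in CCL3 libraries and 3066, 3032 and 3231 FPKM in control libraries. As a share of the summed FPKM of all genes, however, members took 0.823%, 0.741% and 0.720% in CCL3 libraries and 0.844%, 0.899% and 0.918% in control libraries. The sum of all FPKM was itself larger with CCL3, at 477652 to 571085 against 337315 to 363177 in control, so the 2 measures ran in opposite directions.

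CCL3-treated macrophages differed from control macrophages in the expression of 51 of the 153 members, 30 of them higher and 21 lower with CCL3. The test was limma on log2(FPKM + 1) over all 9218 genes that reached a mean of 1 FPKM, with p-values adjusted over all of them and a threshold of 0.05. The background was close to these shares: 32.4% of all genes tested passed, against 33.3% of members, with 18.0% higher and 14.5% lower over all genes, against 19.6% and 13.7% of members. The 3 CCL3 libraries lay wholly above the 3 control libraries for 38 members and wholly below for 37, or 24.8% and 24.2%, where the background was 24.6% and 24.0%. These shares are near the background and are no result about SLC genes as a group. Counts per class, family and list below stand against the same background of 18.0% higher and 14.5% lower. For TPM scaling, plain fragment totals and GC and length correction, the background is that given in the next paragraph. No class, family or list was tested against the background. The median log2 fold change was -0.03 over members and 0.0066 over all genes.

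**Figure D1:**
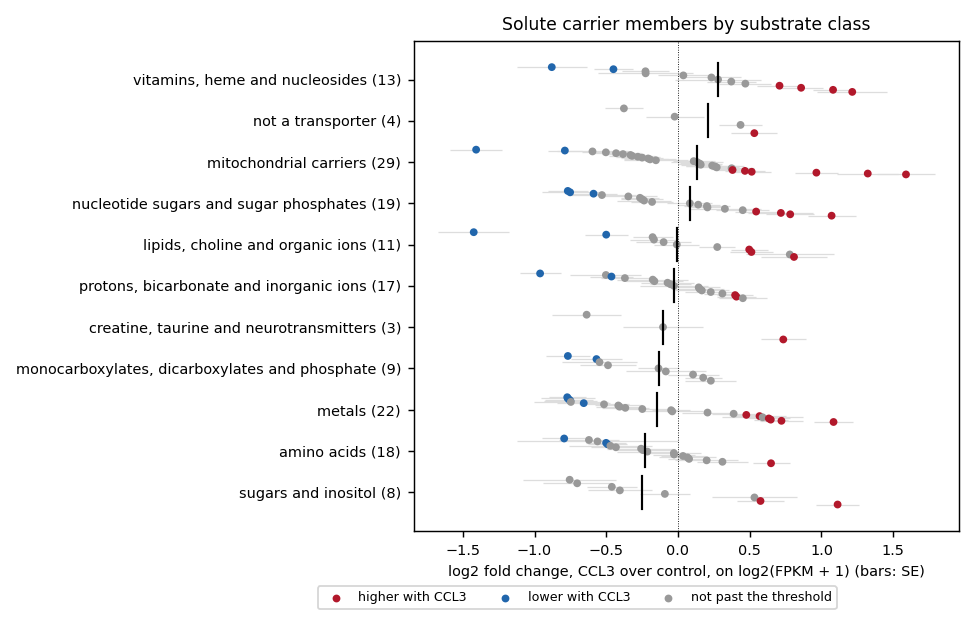
Log2 fold change of each of the 153 members, CCL3 over control, on the log2(FPKM + 1) scale, by substrate class with the number of members in brackets. Points are members with SE bars, coloured by whether they passed the threshold, and black lines are class medians, which run from 0.28 for vitamins, heme and nucleosides to -0.25 for sugars and inositol.

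The direction of the calls depended on scaling. As given above, the divisor of the deposited FPKM was smaller in every CCL3 library than in every control library. On the TPM scale 8 members were higher and 70 lower, and by plain fragment totals 9 and 55. As shares of members these are 5.23% and 45.8%, and 5.88% and 35.9%, where the background over all genes was 5.50% and 43.2% on the TPM scale and 8.71% and 33.1% by plain totals. Over all genes the median log2 fold change became -0.48 and -0.28 under these scalings, and over members -0.50 and -0.32. All 21 falls passed again under both, while 8 and 9 of the 30 rises did. The 8 were Slc25a39, Slc25a10, Slc46a1, Slc2a8, Slc41a3, Slc48a1, Slc35b2 and Slc25a1, and plain totals added Slc29a1. Members that rose were shorter and richer in GC than those that fell, with a median gene length of 3337 against 5098 bases and a median GC content of 56.2% against 49.1%. The same held over all genes tested, at 2707 against 3878 bases and 56.5% against 49.2%. Levels differed as well, with a median of 42.3 FPKM for members that rose and 3.60 FPKM for those that fell. Over all genes tested these medians were 23.6 and 5.20 FPKM. After removal of a GC and length trend from each library, 20 members were higher and 15 lower, or 13.1% and 9.80%, where the background was 15.0% and 12.0%, and 17 of the 30 rises and 11 of the 21 falls passed again. The counts of rises and falls were 20 and 21, 27 and 18, and 17 and 10 without CCL3 replicates 1, 2 and 3, and 19 and 10, 11 and 10, and 26 and 24 without control replicates 1, 2 and 3. Over all 9218 genes they were 1446 and 1260, 1506 and 1089, and 1100 and 812 without CCL3 replicates 1, 2 and 3. Without control replicates 1, 2 and 3 they were 981 and 676, 696 and 456, and 1873 and 1293 over all genes. In all, 20 of the 51 calls passed in each of these 6 fits, and 0 of the 51 changed sign.

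**Figure D2:**
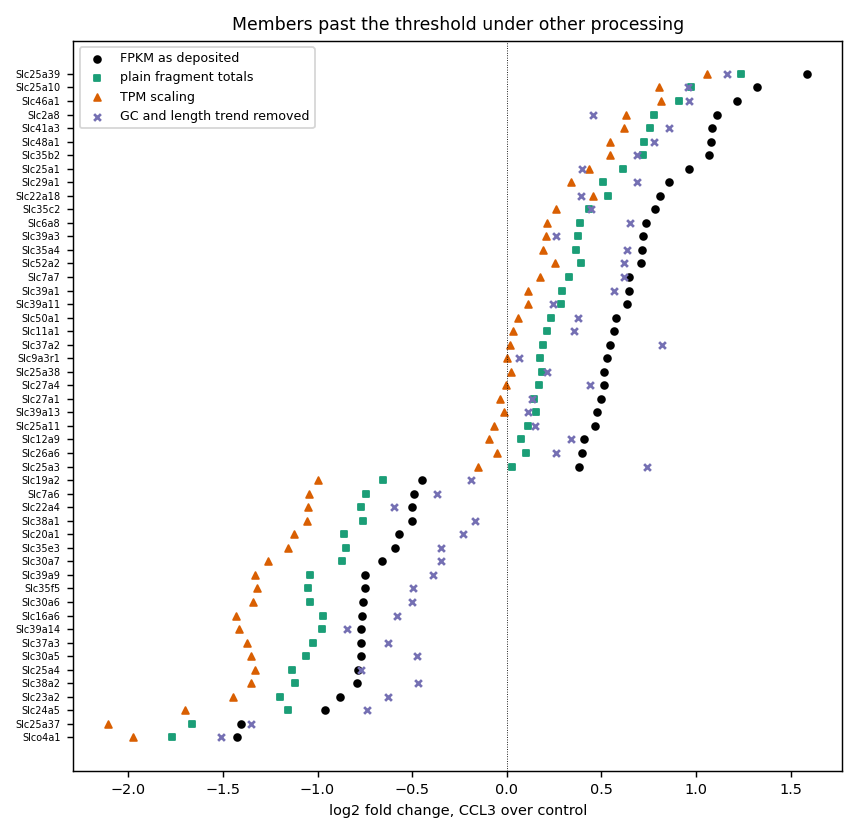
Log2 fold change of 50 of the 51 members that passed, CCL3 over control, with FPKM as deposited, with plain fragment totals, with TPM scaling and after removal of a GC and length trend. TPM scaling and plain totals shift all members drawn to the left, and 8 of the 30 rises lie just below 0 with TPM scaling.

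Reads from overlapping genes could not be told apart, because the use of strand in counting is not given. Of the 51 members that passed, 10 overlap another gene above the filter, all on the opposite strand: Slc48a1 with Hdac7, Slc25a11 with Rnf167, Slc37a2 with Gm10177, Slc35a4 with Sra1, Slc39a11 with Cog1, Slc39a13 with Psmc3, Slc7a7 with Oxa1l, Slc39a9 with Erh, Slc20a1 with Gm4430 and Slc16a6 with Amz2. Their levels are uncertain to that extent. Genes with close copies elsewhere in the genome, such as the ADP/ATP carrier genes, are uncertain too.

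The largest rises included genes of mitochondrial, phagolysosomal, Golgi and plasma membrane carriers. Slc25a39, a carrier needed for glutathione import into mitochondria, had 195, 204 and 308 FPKM in CCL3 libraries, against 76.1, 67.7 and 84.9 FPKM in control libraries (log2 fold change 1.59 ± 0.20 SE, adjusted p = 0.00315; ENSMUSG00000018677, chromosome 11, 102402985 to 102407946, minus strand). It was followed by Slc25a10, the mitochondrial dicarboxylate carrier gene, by Slc46a1, the proton-coupled folate transporter gene, and by Slc2a8, which encodes an intracellular hexose transporter. The next were Slc41a3, a gene of a magnesium transporter family, Slc48a1, Slc35b2, which encodes a Golgi transporter of the sulfate donor PAPS, Slc25a1, the mitochondrial citrate carrier gene, Slc29a1, an equilibrative nucleoside transporter gene, and Slc22a18, a gene of the organic ion transporter family. Log2 fold changes over these 10 ranged from 0.81 to 1.59. All but Slc22a18 passed in each of the 6 fits without 1 library, and all but Slc22a18 passed after GC and length correction.

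The largest falls were those of Slco4a1 and Slc25a37. Slco4a1, which encodes an organic anion transporter of the plasma membrane, had 35.4, 23.3 and 23.7 FPKM in CCL3 libraries, against 54.3, 76.02 and 97.7 FPKM in control libraries (log2 fold change -1.42 ± 0.25 SE, adjusted p = 0.00588; ENSMUSG00000038963, chromosome 2, 180456245 to 180474867, plus strand). Control libraries differed among themselves, but each was above all CCL3 libraries. Slc25a37, which encodes mitoferrin 1, an iron importer of mitochondria, had 1.82, 1.62 and 1.13 FPKM in CCL3 libraries, against 6.31, 6.38 and 4.47 FPKM in control libraries (log2 fold change -1.41 ± 0.18 SE, adjusted p = 0.00315; ENSMUSG00000034248, chromosome 14, 69241848 to 69285112, minus strand). Both passed in all 6 fits without 1 library and after GC and length correction. The other 8 of the 10 largest falls were Slc24a5, Slc23a2, Slc38a2, Slc25a4, Slc30a5, Slc37a3, Slc39a14 and Slc16a6, with log2 fold changes from -0.96 to -0.77. Of these, Slc24a5, Slc39a14 and Slc16a6 passed the filter through their control values. Slc24a5, a potassium-dependent sodium and calcium exchanger gene best known from pigment cells, was at low levels and under 1 FPKM in every CCL3 library, with 0.635, 0.425 and 0.680 FPKM in CCL3 libraries, against 2.23, 2.16 and 1.83 FPKM in control libraries, with as few as 17 fragments in a library.

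**Figure D3:**
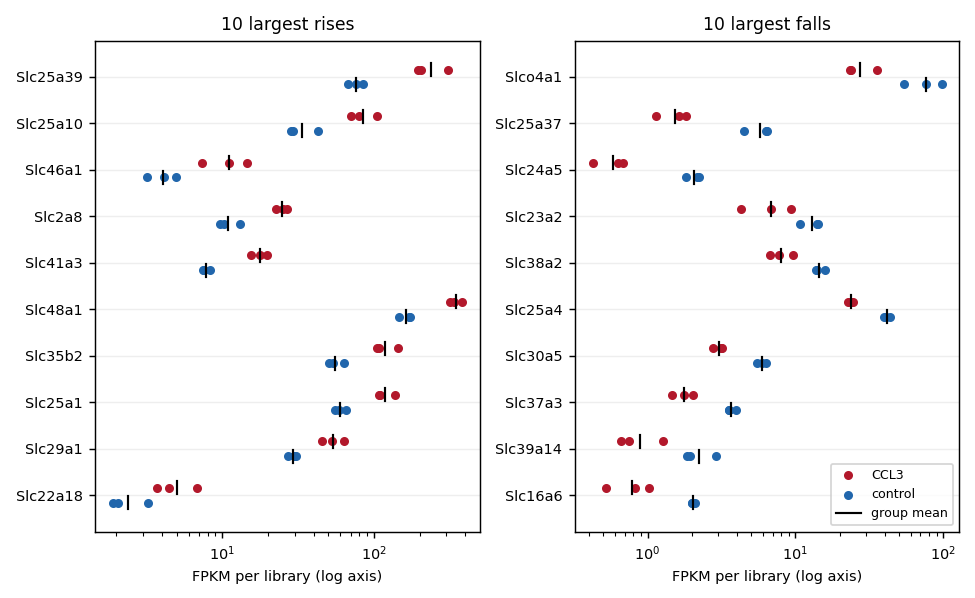
FPKM in each library, on a log axis, for the 10 members with the largest rise and the 10 with the largest fall among those that passed and whose groups did not overlap. Slc24a5, Slc39a14 and Slc16a6 passed the filter through their control values. Points are libraries and black lines group means; in the left panel all CCL3 points lie right of the control points of the same gene, from Slc25a39 to Slc22a18, and in the right panel all lie left of them.

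Upstream sequences were read for members that rose and members that fell. CACGTG, the palindromic E-box core that TFEB and MYC family factors bind, was looked for in the 250 bases before each start in RefSeq on GRCm38.p6, where 117 members have an entry. It was found for 5 of 26 members that rose, 5 of 16 that fell, 8 of 75 that did not pass and 6.86% of all 27025 genes with an entry. The antioxidant response element core TGACNNNGC, read on both strands, was found for 6 of 26, 3 of 16 and 15 of 75 members and for 11.5% of all genes. A match of letters says nothing of binding, and the counts were not tested. The upstream windows of the rising Slc41a3 and Slc25a1 and of the falling Slc30a5 and Slc37a3 are shown 5′ to 3′ on the strand of the gene. They are the members with the largest changes on each side among those that hold a CACGTG, which is given in capitals, and were chosen after their values were seen. The motif begins 213, 239, 61 and 13 bases before the start. For Slc37a3, which has 2 entries, the window with the match is given. The RefSeq start of Slc41a3 lies inside the gene's deposited interval, so its window is not upstream of the whole gene.
Slc41a3, chr6:90618996-90619245, plus strand: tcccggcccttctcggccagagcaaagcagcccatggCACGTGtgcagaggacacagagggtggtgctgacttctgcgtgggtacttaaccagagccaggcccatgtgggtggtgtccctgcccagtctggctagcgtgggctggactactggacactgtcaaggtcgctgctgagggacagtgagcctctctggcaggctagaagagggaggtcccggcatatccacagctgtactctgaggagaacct
Slc25a1, chr16:17928220-17928469, minus strand: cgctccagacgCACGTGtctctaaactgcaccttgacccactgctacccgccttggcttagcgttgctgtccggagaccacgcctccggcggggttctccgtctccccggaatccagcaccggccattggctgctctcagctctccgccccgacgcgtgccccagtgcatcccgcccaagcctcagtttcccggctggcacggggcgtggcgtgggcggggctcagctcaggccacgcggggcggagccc
Slc30a5, chr13:100833428-100833677, minus strand: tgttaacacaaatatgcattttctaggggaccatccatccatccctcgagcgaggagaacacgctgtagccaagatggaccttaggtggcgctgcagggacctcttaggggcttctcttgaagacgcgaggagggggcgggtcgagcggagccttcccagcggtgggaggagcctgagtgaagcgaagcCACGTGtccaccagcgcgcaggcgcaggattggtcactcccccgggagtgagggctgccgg
Slc37a3, chr6:39377708-39377957, minus strand: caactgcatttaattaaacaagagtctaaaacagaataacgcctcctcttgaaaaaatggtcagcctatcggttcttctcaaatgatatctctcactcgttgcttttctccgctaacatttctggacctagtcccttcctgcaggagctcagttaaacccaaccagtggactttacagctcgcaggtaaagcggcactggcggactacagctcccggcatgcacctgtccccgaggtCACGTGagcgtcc

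Among 22 metal transporter genes 6 rose and 5 fell, zinc carriers among both. The background over all genes was 18.0% higher and 14.5% lower. Among the falls, Slc39a14 passed the filter through control. SLC39 proteins raise cytosolic zinc and SLC30 proteins lower it, by export or by loading organelles. Of 10 SLC39 members 4 rose and 2 fell, and of 4 SLC30 members 0 rose and 3 fell. For SLC39 these counts became 0 and 4 on the TPM scale, 0 and 3 by plain totals and 2 and 2 with GC and length corrected. For SLC30 they were 0 and 3, 0 and 3, and 0 and 1. The rises of SLC39 members thus depended on scaling. Whether the families differ was not tested. Slc39a1, a zinc importer gene of the plasma membrane, had 172, 165 and 169 FPKM in CCL3 libraries, against 108, 105 and 109 FPKM in control libraries (log2 fold change 0.65 ± 0.12 SE, adjusted p = 0.00690; ENSMUSG00000052310, chromosome 3, 90248172 to 90253612, plus strand). Replicates were tight in both groups, and the groups did not overlap. Slc39a3, its close relative, had 34.6, 28.6 and 37.9 FPKM in CCL3 libraries, against 18.7, 19.1 and 22.1 FPKM in control libraries (log2 fold change 0.72 ± 0.15 SE, adjusted p = 0.0106). Slc39a11, a zinc transporter gene of internal membranes, rose to 42.1 ± 4.55 FPKM with CCL3, against 26.8 ± 2.91 FPKM in control (mean ± SD, n = 3 each; log2 fold change 0.63 ± 0.15 SE, adjusted p = 0.0147). Slc39a13, whose product releases zinc from the early secretory pathway, had a log2 fold change of 0.48 ± 0.12 SE, or -0.01 with TPM scaling.

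The zinc carriers that fell act on the secretory pathway or carry other metals as well. Slc30a5 had 2.77, 3.16 and 3.20 FPKM in CCL3 libraries, against 5.92, 6.27 and 5.53 FPKM in control libraries (log2 fold change -0.77 ± 0.13 SE, adjusted p = 0.00549; ENSMUSG00000021629, chromosome 13, 100802648 to 100833427, minus strand). Its product pairs with that of Slc30a6 to load zinc into the early secretory pathway, and Slc30a6 had 3.34, 2.70 and 2.23 FPKM in CCL3 libraries, against 5.45, 4.52 and 6.05 FPKM in control libraries (log2 fold change -0.76 ± 0.17 SE, adjusted p = 0.0128). Slc30a7, another gene of this pathway, had 1.03, 1.49 and 0.757 FPKM in CCL3 libraries, against 2.76, 2.33 and 1.78 FPKM in control libraries (log2 fold change -0.66 ± 0.18 SE, adjusted p = 0.0298). All CCL3 libraries were below all control libraries for these genes, although values were low. The plasma membrane zinc exporter gene Slc30a1 did not pass, at 2.27, 2.71 and 1.72 FPKM in CCL3 libraries and 3.23, 2.31 and 1.56 FPKM in control libraries, and the groups overlapped. Slc39a14, which encodes an importer of zinc, iron and manganese, had 1.27, 0.662 and 0.751 FPKM in CCL3 libraries, against 1.94, 1.85 and 2.89 FPKM in control libraries (log2 fold change -0.77 ± 0.19 SE, adjusted p = 0.0185), and its CCL3 mean was under 1 FPKM. Slc39a9 fell to 3.26 ± 1.06 FPKM with CCL3, against 6.04 ± 0.386 FPKM in control (log2 fold change -0.75 ± 0.19 SE, adjusted p = 0.0194).

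Several of these zinc calls were sensitive to processing. After GC and length correction Slc39a1, Slc30a5 and Slc39a14 passed, and Slc39a3, Slc39a11, Slc39a13, Slc39a9, Slc30a6 and Slc30a7 did not (adjusted p = 0.0964, 0.140, 0.473, 0.116, 0.0796 and 0.0640), each with its direction kept. Slc30a5 and Slc30a6 have gene lengths of 7294 and 3062 bases, and Slc30a7, Slc39a9 and Slc39a14 of 11116, 10155 and 10550 bases. On other scalings the rise of Slc39a1 was smaller and did not pass, with log2 fold changes of 0.11 by TPM (adjusted p = 0.523), 0.29 by plain totals (adjusted p = 0.0811) and 0.19 after quantile normalization (adjusted p = 0.211). In the fits without 1 library Slc39a1, Slc30a5 and Slc30a6 passed throughout. Slc39a3 and Slc39a11 were lost without control replicate 2 (adjusted p = 0.0558 and 0.0830) and Slc39a14 without CCL3 replicate 3 (adjusted p = 0.0571). Slc39a13 was lost without CCL3 replicate 3 or control replicates 1 and 2, Slc39a9 without CCL3 replicates 2 and 3 or control replicates 1 and 2 and Slc30a7 without CCL3 replicates 1 and 3 or control replicates 1 and 2, with adjusted p of up to 0.110, 0.0805 and 0.105.

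Genes for other metals included a further pair of rises. Slc11a1, known as Nramp1, encodes a phagosomal metal pump of macrophages, of which C57BL/6 mice are known to carry a loss-of-function allele. It had 165, 162 and 163 FPKM in CCL3 libraries, against 139, 112 and 85.6 FPKM in control libraries (log2 fold change 0.57 ± 0.18 SE, adjusted p = 0.0459). The CCL3 libraries were nearly equal and the control libraries spread widely, and the call was lost without CCL3 replicates 1, 2 and 3 or control replicates 2 and 3 (adjusted p of up to 0.129) and once GC and length were corrected for (adjusted p = 0.216). Slc41a3 had 19.7, 15.6 and 17.9 FPKM in CCL3 libraries, against 7.52, 7.56 and 8.30 FPKM in control libraries (log2 fold change 1.08 ± 0.14 SE, adjusted p = 0.00315; ENSMUSG00000030089, chromosome 6, 90604725 to 90646412, plus strand). Its relatives Slc41a1 and Slc41a2 did not pass, at 2.43 ± 0.506 and 2.66 ± 0.564 FPKM with CCL3 and 3.54 ± 0.554 and 3.86 ± 0.480 FPKM in control. The iron exporter gene Slc40a1, which encodes ferroportin, had 1.74, 1.98 and 2.01 FPKM in CCL3 libraries, against 5.998, 4.12 and 2.25 FPKM in control libraries. All CCL3 libraries were lower, but it missed the threshold (log2 fold change -0.75 ± 0.26 SE, adjusted p = 0.0586). The copper importer gene Slc31a1 was also outside it, with 8.60, 12.4 and 8.33 FPKM in CCL3 libraries, against 15.5, 14.6 and 12.6 FPKM in control libraries (log2 fold change -0.52 ± 0.18 SE, adjusted p = 0.0562). Slc11a2, an iron importer gene of endosomes, stood at 15.8 ± 1.87 FPKM with CCL3 and 11.8 ± 1.63 FPKM in control (adjusted p = 0.0842). Of the 22 metal genes 1 rose and 12 fell on the TPM scale, 1 and 11 by plain totals and 4 and 3 on GC- and length-corrected values. Their summed level was 519, 494 and 511 FPKM in CCL3 libraries and 411, 365 and 338 FPKM in control libraries. As a share of the summed FPKM of all genes, however, the groups overlapped. The shares were 0.109%, 0.102% and 0.0894% in CCL3 libraries and 0.113%, 0.108% and 0.0962% in control libraries.

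**Figure D4:**
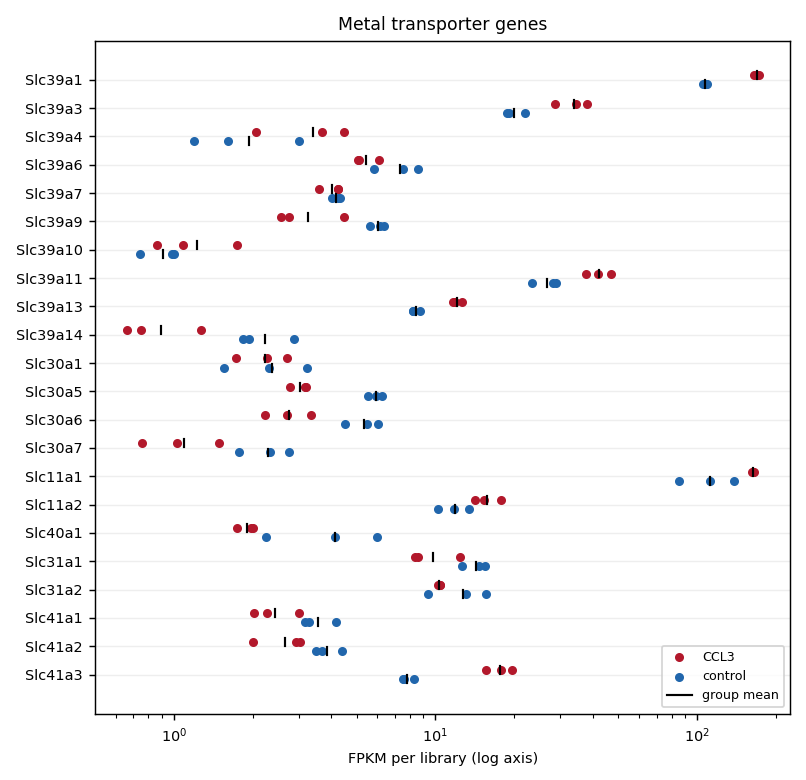
FPKM in each library, on a log axis, for the 22 metal transporter genes, ordered by family. Points are libraries and black lines group means. CCL3 libraries lie wholly right of control libraries for 7 genes and wholly left for 9, where the background over all genes was 24.6% and 24.0%. The 7 are Slc39a1, Slc39a3, Slc39a11, Slc39a13, Slc11a1, Slc11a2 and Slc41a3. The 9 include Slc30a5, Slc30a6 and Slc30a7 and also Slc39a9, Slc39a14, Slc40a1 and Slc31a1.

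Of 13 genes for vitamins, heme and nucleosides 4 rose, Slc48a1, Slc46a1, Slc29a1 and Slc52a2, and 2 fell, Slc23a2 and Slc19a2 (background 18.0% and 14.5%). Slc48a1, also known as HRG1, moves heme from the phagolysosome into the cytosol in macrophages that digest red cells. It had 316, 335 and 381 FPKM in CCL3 libraries, against 169, 145 and 172 FPKM in control libraries (log2 fold change 1.08 ± 0.14 SE, adjusted p = 0.00315; ENSMUSG00000081534, chromosome 15, 97778520 to 97792692, plus strand). Slc46a1, which encodes a folate transporter also able to carry heme, had 11.1, 7.35 and 14.7 FPKM in CCL3 libraries, against 4.94, 4.10 and 3.19 FPKM in control libraries (log2 fold change 1.21 ± 0.24 SE, adjusted p = 0.00936). The spread within each group was large, yet the groups did not overlap. The riboflavin transporter gene Slc52a2 had 8.39, 9.01 and 11.8 FPKM in CCL3 libraries, against 5.51, 5.07 and 5.98 FPKM in control libraries (log2 fold change 0.71 ± 0.16 SE, adjusted p = 0.0134). It was lost without control replicate 2 (adjusted p = 0.0685). The nucleoside transporter gene Slc29a1 had 52.7, 45.6 and 63.7 FPKM in CCL3 libraries, against 30.8, 26.96 and 29.5 FPKM in control libraries (log2 fold change 0.86 ± 0.16 SE, adjusted p = 0.00675). The nucleoside transporter genes Slc29a2 and Slc28a2 did not pass, with log2 fold changes of 0.37 and -0.23, nor did the lysosomal Slc29a3, with 22.8, 20.2 and 14.9 FPKM in CCL3 libraries and 18.2, 17.9 and 12.6 FPKM in control libraries.

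Slc23a2, which encodes a sodium-coupled vitamin C importer, fell. It had 9.28, 6.88 and 4.28 FPKM in CCL3 libraries, against 14.2, 13.9 and 10.8 FPKM in control libraries (log2 fold change -0.88 ± 0.24 SE, adjusted p = 0.0286), with CCL3 replicate 1 close to control replicate 3. The call was lost without CCL3 replicates 2 and 3 or control replicates 1 and 2 (adjusted p of up to 0.0976) and once GC and length were corrected for (adjusted p = 0.0549). The thiamine transporter gene Slc19a2 fell to 0.997 ± 0.159 FPKM with CCL3, against 1.72 ± 0.0930 FPKM in control (log2 fold change -0.45 ± 0.14 SE, adjusted p = 0.0372), so that it passed the filter through control. The call was lost without CCL3 replicates 2 and 3 or control replicates 1, 2 and 3 (adjusted p of up to 0.118) and once GC and length were corrected for (adjusted p = 0.258). The reduced folate carrier gene Slc19a1 had 6.71, 5.72 and 8.42 FPKM in CCL3 libraries and 4.10, 4.29 and 5.81 FPKM in control libraries and did not pass (adjusted p = 0.0793). In this class 2 rose and 3 fell on the TPM scale, 3 and 2 by plain totals and 4 and 0 on GC- and length-corrected values. The median log2 fold change was 0.28, or -0.15 with TPM scaling. The summed level was 468, 469.6 and 526 FPKM in CCL3 libraries and 289, 265 and 271 FPKM in control libraries, of which Slc48a1 made up the greater part. As a share of the summed FPKM of all genes it was 0.0981%, 0.0972% and 0.0921% in CCL3 libraries. In control libraries the share was 0.0795%, 0.0785% and 0.0771%.

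Mitochondrial carriers formed the largest class, with 29 members, all of family SLC25, of which 6 rose and 2 fell (background 18.0% and 14.5%). These proteins of the inner membrane exchange metabolites, nucleotides and phosphate with the matrix. The dicarboxylate carrier gene Slc25a10 had 80.02, 70.1 and 105 FPKM in CCL3 libraries, against 28.4, 29.3 and 42.9 FPKM in control libraries (log2 fold change 1.32 ± 0.21 SE, adjusted p = 0.00488; ENSMUSG00000025792, chromosome 11, 120491840 to 120499187, plus strand). The citrate carrier gene Slc25a1, whose product delivers citrate to the cytosol for lipid synthesis, had 109, 108 and 138 FPKM in CCL3 libraries, against 59.1, 55.5 and 65.4 FPKM in control libraries (log2 fold change 0.96 ± 0.15 SE, adjusted p = 0.00441; ENSMUSG00000003528, chromosome 16, 17925223 to 17928219, minus strand). For both genes control replicate 3 was the highest control library and CCL3 replicate 3 the highest of all. Smaller rises were those of Slc25a38, the glycine carrier gene of heme synthesis (log2 fold change 0.51 ± 0.14 SE), Slc25a11, the oxoglutarate carrier gene (0.47 ± 0.14 SE), and Slc25a3, the phosphate carrier gene (0.38 ± 0.12 SE). Slc25a11 and Slc25a3 had log2 fold changes of -0.07 and -0.15 with TPM scaling, and Slc25a3 of -0.03 after quantile normalization.

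The ADP/ATP carrier genes were read side by side. Slc25a4, which encodes the ADP/ATP carrier ANT1, had 24.3, 23.8 and 22.7 FPKM in CCL3 libraries, against 43.8, 40.7 and 39.96 FPKM in control libraries (log2 fold change -0.79 ± 0.12 SE, adjusted p = 0.00438). Slc25a5, which encodes ANT2 and is the more abundant, had 174, 182 and 207 FPKM in CCL3 libraries and 204, 218 and 265 FPKM in control libraries and did not pass (adjusted p = 0.184); the difference between the 2 genes was not tested. Beside the fall of mitoferrin 1, the gene of mitoferrin 2, Slc25a28, had 36.2, 30.5 and 42.98 FPKM in CCL3 libraries and 23.7, 30.4 and 37.8 FPKM in control libraries, with overlapping groups. Mitoferrin 1 is best known from red cell precursors. In these libraries the erythroid genes Epb42 and Hba-a2 were at 0, and so was Slc4a1, the band 3 gene of red cells. The 7 erythroid markers summed to 1.72 to 4.39 FPKM in CCL3 libraries and 0.965 to 1.25 FPKM in control libraries, and 1 rose. The mitochondrial NAD carrier gene Slc25a51 lay just outside the threshold (log2 fold change -0.503 ± 0.17 SE, adjusted p = 0.0504), with 9.70, 7.33 and 6.28 FPKM in CCL3 libraries, against 11.7, 10.7 and 11.4 FPKM in control libraries. Slc25a5 apart, the 20 members of the class that did not pass had means from 1.12 to 33.6 FPKM.

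Without 1 library, Slc25a39, Slc25a10, Slc25a1, Slc25a4 and Slc25a37 passed in all 6 fits. Slc25a38 was lost without CCL3 replicate 3 or control replicates 1 and 2, Slc25a11 without CCL3 replicates 1 and 3 or control replicates 1 and 2 and Slc25a3 in each of the 6, with adjusted p of up to 0.106, 0.148 and 0.178. Corrected for GC and length, Slc25a38 and Slc25a11 did not pass (adjusted p = 0.153 and 0.265), and Slc25a3 had a larger log2 fold change of 0.74. In the class 3 rose and 12 fell on the TPM scale, 3 and 11 by plain totals and 4 and 2 on GC- and length-corrected values.

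**Figure D5:**
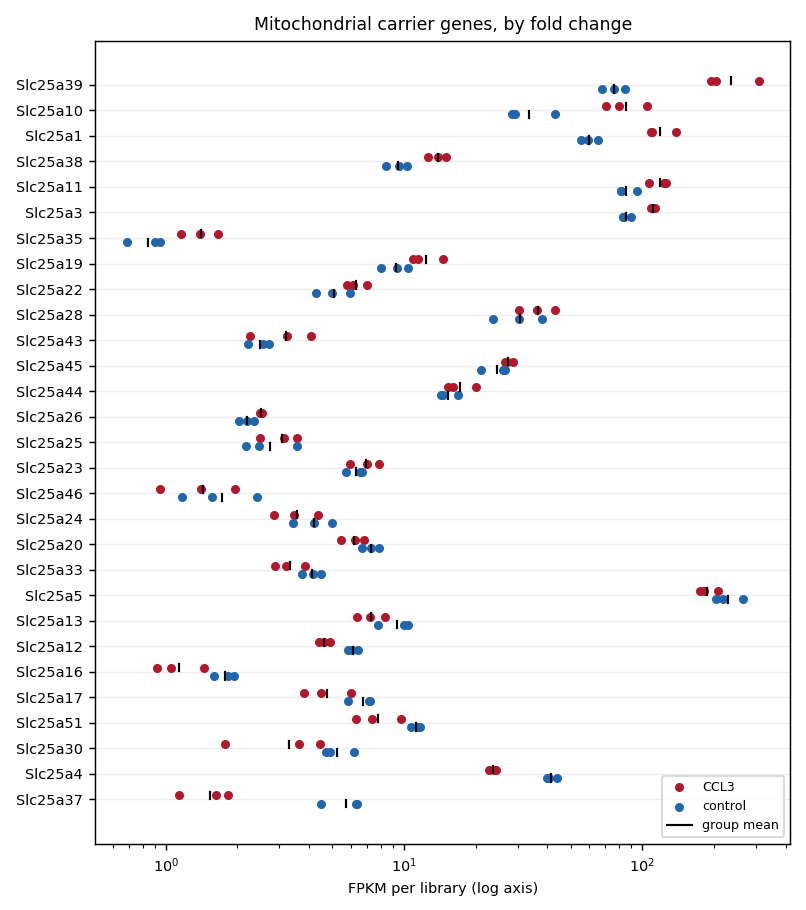
FPKM in each library, on a log axis, for the 29 mitochondrial carrier genes, ordered by log2 fold change from Slc25a39 at the top to Slc25a37 at the bottom. Points are libraries and black lines group means; the groups lie apart for the 8 members that passed, the 6 at the top and the 2 at the bottom.

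Among 19 genes for nucleotide sugars, sugar phosphates and acetyl-CoA, some of which serve glycosylation and sulfation in the Golgi, 4 rose and 3 fell. The background over all genes was 18.0% and 14.5%. Slc35b2 had 105, 108 and 143 FPKM in CCL3 libraries, against 53.4, 50.2 and 63.1 FPKM in control libraries (log2 fold change 1.07 ± 0.17 SE, adjusted p = 0.00458; ENSMUSG00000037089, chromosome 17, 45563874 to 45567671, plus strand). All CCL3 libraries were above all control libraries, among which replicate 3 was the highest. Slc35c2, a gene of the same family linked to fucosylation, had 45.4, 55.1 and 64.4 FPKM in CCL3 libraries, against 29.1, 29.3 and 35.6 FPKM in control libraries (log2 fold change 0.78 ± 0.17 SE, adjusted p = 0.0113). That call was lost without control replicate 2 (adjusted p = 0.0562) and once GC and length were corrected for (adjusted p = 0.0740). Slc35a4 rose to 67.98 ± 16.6 FPKM with CCL3, against 40.8 ± 9.70 FPKM in control (log2 fold change 0.72 ± 0.23 SE, adjusted p = 0.0439). It was the 1 member past the threshold whose groups overlapped, and it was lost without CCL3 replicates 1 and 3 or control replicates 1 and 2 (adjusted p of up to 0.145).

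Of the 4 sugar phosphate exchanger genes 1 rose and 1 fell. Slc37a2, which is expressed in macrophages and osteoclasts, had 82.9, 72.8 and 77.1 FPKM in CCL3 libraries, against 55.9, 59.4 and 44.3 FPKM in control libraries (log2 fold change 0.54 ± 0.15 SE, adjusted p = 0.0284), and its log2 fold change was 0.82 after GC and length correction and 0.02 with TPM scaling. It was lost without CCL3 replicates 1 and 3 or control replicates 1, 2 and 3 (adjusted p of up to 0.0696). Slc37a3 had 2.03, 1.46 and 1.76 FPKM in CCL3 libraries, against 3.54, 3.94 and 3.53 FPKM in control libraries (log2 fold change -0.77 ± 0.14 SE, adjusted p = 0.00698) and passed in all 6 fits without 1 library. Slc37a1 and Slc37a4 did not pass, with log2 fold changes of -0.25 and -0.18. The orphan members Slc35f5 and Slc35e3 fell (-0.75 ± 0.20 SE and -0.59 ± 0.16 SE, log2). They were lost without CCL3 replicates 1 and 3 or control replicates 1 and 2 and without CCL3 replicates 2 and 3 or control replicates 1 and 2 (adjusted p of up to 0.0972 and 0.125), and once GC and length were corrected for (adjusted p = 0.0647 and 0.110). In the class 1 rose and 9 fell on the TPM scale, 1 and 8 by plain totals and 3 and 1 on GC- and length-corrected values.

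Of 8 genes for sugars and inositol 2 rose and 0 fell (background 18.0% and 14.5%). By TPM scaling 1 rose and 4 fell, by plain totals 1 and 4, and on GC- and length-corrected values 1 and 2. Slc2a8, which encodes GLUT8, had 25.2, 22.4 and 26.6 FPKM in CCL3 libraries, against 9.60, 10.3 and 13.0 FPKM in control libraries (log2 fold change 1.11 ± 0.15 SE, adjusted p = 0.00348; ENSMUSG00000026791, chromosome 2, 32972990 to 32982083, minus strand). Slc50a1, the mouse member of the SWEET sugar transporters, had 24.5, 27.5 and 34.2 FPKM in CCL3 libraries, against 18.4, 16.9 and 21.2 FPKM in control libraries (log2 fold change 0.58 ± 0.16 SE, adjusted p = 0.0307). The call was lost without CCL3 replicates 2 and 3 or control replicates 1 and 2 (adjusted p of up to 0.132) and once GC and length were corrected for (adjusted p = 0.0673). Slc2a1, which encodes GLUT1, the main glucose importer of activated macrophages, had 17.4, 10.2 and 15.3 FPKM in CCL3 libraries, against 20.8, 19.7 and 30.97 FPKM in control libraries. All CCL3 libraries were lower, but the gene just missed the threshold (log2 fold change -0.70 ± 0.24 SE, adjusted p = 0.0524). Slc2a6, a lysosomal hexose transporter gene and the class member with the highest mean, had 38.9, 32.7 and 15.4 FPKM in CCL3 libraries, against 36.5, 50.6 and 53.7 FPKM in control libraries, with CCL3 replicate 3 far below the others (log2 fold change -0.76 ± 0.32 SE, adjusted p = 0.104).

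Of 9 genes for monocarboxylates, dicarboxylates and phosphate 0 rose and 2 fell (background 18.0% and 14.5%). Among the falls, Slc16a6 passed the filter through control. On the TPM scale 0 rose and 5 fell, by plain totals 0 and 5, and on GC- and length-corrected values 0 and 1. The lactate exporter gene Slc16a3, which encodes MCT4, had 20.99, 16.04 and 23.3 FPKM in CCL3 libraries and 15.8, 17.6 and 33.8 FPKM in control libraries, with control replicate 3 above all other libraries (adjusted p = 0.834). Slc16a1, which encodes the lactate transporter MCT1, had 0.711, 0.631 and 1.40 FPKM in CCL3 libraries and 1.74, 1.23 and 2.02 FPKM in control libraries and did not pass (adjusted p = 0.0907). Slc16a6, a less studied relative, had 1.02, 0.525 and 0.819 FPKM in CCL3 libraries, against 1.99, 2.005 and 2.08 FPKM in control libraries (log2 fold change -0.77 ± 0.15 SE, adjusted p = 0.00892), with a CCL3 mean under 1 FPKM and as few as 44 fragments in a library. The phosphate importer gene Slc20a1 had 3.01, 3.42 and 3.76 FPKM in CCL3 libraries, against 4.65, 4.98 and 7.13 FPKM in control libraries (log2 fold change -0.57 ± 0.17 SE, adjusted p = 0.0398). That call was lost when any 1 of the 6 libraries was left out (adjusted p of up to 0.0946) and once GC and length were corrected for (adjusted p = 0.394).

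Of 18 amino acid and peptide transporter genes 1 rose and 3 fell (background 18.0% and 14.5%). Scaled to TPM these counts became 0 and 12, by plain totals 0 and 6, and with GC and length corrected 1 and 2. Slc38a2, which encodes the neutral amino acid importer SNAT2, had 7.78, 9.55 and 6.68 FPKM in CCL3 libraries, against 13.7, 15.7 and 14.1 FPKM in control libraries (log2 fold change -0.79 ± 0.16 SE, adjusted p = 0.00876; ENSMUSG00000022462, chromosome 15, 96687392 to 96699730, minus strand). Slc38a1, which encodes SNAT1, had 2.35, 1.94 and 1.74 FPKM in CCL3 libraries, against 3.24, 3.39 and 3.12 FPKM in control libraries (log2 fold change -0.501 ± 0.14 SE, adjusted p = 0.0283). The groups did not overlap for either. The genes of 2 exchangers of cationic and neutral amino acids moved in opposite directions. Slc7a7, which encodes y+LAT1 and whose loss in humans causes lysinuric protein intolerance, had 11.7, 10.8 and 12.2 FPKM in CCL3 libraries, against 7.45, 7.17 and 6.45 FPKM in control libraries (log2 fold change 0.65 ± 0.13 SE, adjusted p = 0.00921). Slc7a6, which encodes y+LAT2, had 2.15, 1.72 and 1.92 FPKM in CCL3 libraries, against 2.91, 3.13 and 3.29 FPKM in control libraries (log2 fold change -0.49 ± 0.13 SE, adjusted p = 0.0270). Slc7a7 and Slc38a2 passed in all 6 fits without 1 library, though Slc7a7 overlaps Oxa1l, which had the higher mean. Slc38a1 was lost without CCL3 replicates 2 and 3 or control replicates 1 and 2 (adjusted p of up to 0.125) and once GC and length were corrected for (adjusted p = 0.360), and Slc7a6 without CCL3 replicates 2 and 3 or control replicates 1, 2 and 3 (adjusted p of up to 0.114).

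The heavy chain that y+LAT1, y+LAT2, LAT1 and LAT2 all need at the surface, encoded by Slc3a2, was the most expressed member of the class and did not pass, at 114, 97.6 and 127 FPKM in CCL3 libraries and 115, 95.8 and 119 FPKM in control libraries. Slc7a5, which encodes LAT1, had 2.41, 1.84 and 5.24 FPKM in CCL3 libraries, against 2.39, 2.76 and 14.3 FPKM in control libraries. Control replicate 3 stood far above all other libraries, and the log2 fold change was -0.56, or 0.14 without that library (adjusted p = 0.461 and 0.756). The arginine importer gene Slc7a1 also had its highest value in control replicate 3, with 1.52, 1.03 and 1.43 FPKM in CCL3 libraries and 1.42, 1.62 and 4.25 FPKM in control libraries. Slc7a8, which encodes LAT2, had 46.1, 33.2 and 44.3 FPKM in CCL3 libraries, against 51.4, 50.4 and 65.5 FPKM in control libraries (log2 fold change -0.43 ± 0.18 SE, adjusted p = 0.0910). The glutamine transporter gene Slc1a5 had 12.6, 8.71 and 16.8 FPKM in CCL3 libraries and 12.6, 14.4 and 18.01 FPKM in control libraries. Slc43a2, a gene of a transporter of large neutral amino acids, had 73.5 ± 14.2 FPKM with CCL3 and 64.4 ± 15.3 FPKM in control. Groups overlapped for both. The cystine importer gene Slc7a11 and the arginine importer gene Slc7a2 were below the filter, at 0.206 ± 0.0245 and 0.557 ± 0.0275 FPKM with CCL3 and 0.273 ± 0.229 and 0.802 ± 0.151 FPKM in control.

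Of the genes for creatine, taurine and betaine, 1 of 3 rose and 0 fell (background 18.0% and 14.5%). By TPM scaling 0 rose and 1 fell, by plain totals 0 and 1, and on GC- and length-corrected values 1 and 1. The creatine importer gene Slc6a8 had 59.97, 54.3 and 68.02 FPKM in CCL3 libraries, against 41.9, 31.6 and 35.1 FPKM in control libraries (log2 fold change 0.73 ± 0.16 SE, adjusted p = 0.0112; ENSMUSG00000019558, chromosome X, 73673150 to 73682502, plus strand), and was lost without control replicate 2 (adjusted p = 0.0608). The taurine importer gene Slc6a6, at a higher level, had 123, 87.6 and 63.3 FPKM in CCL3 libraries, against 143, 157 and 116 FPKM in control libraries. It did not pass, and CCL3 replicate 1 lay above control replicate 3 (log2 fold change -0.64 ± 0.24 SE, adjusted p = 0.0758). The betaine transporter gene Slc6a12 stood at 17.4 ± 6.22 FPKM with CCL3 and 18.1 ± 3.498 FPKM in control.

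In the class of lipids, choline and organic ions 3 of 11 members rose and 2 fell (background 18.0% and 14.5%). Scaled to TPM these counts became 0 and 5, by plain totals 0 and 2, and with GC and length corrected 1 and 2. Beside the fall of Slco4a1, the genes of fatty acid transport proteins rose. Slc27a1 had 90.4, 81.2 and 94.2 FPKM in CCL3 libraries, against 59.5, 60.6 and 67.3 FPKM in control libraries (log2 fold change 0.496 ± 0.13 SE, adjusted p = 0.0230). Slc27a4 had 29.1, 22.9 and 31.98 FPKM in CCL3 libraries, against 18.5, 19.2 and 19.8 FPKM in control libraries (log2 fold change 0.51 ± 0.15 SE, adjusted p = 0.0362). The groups did not overlap, but with TPM scaling both log2 fold changes were just below 0, at -0.03 and -0.0036. Slc27a1 was lost without CCL3 replicate 3 or control replicates 1 and 2 and Slc27a4 without CCL3 replicates 1 and 3 or control replicates 1, 2 and 3 (adjusted p of up to 0.112 and 0.124). Slc22a18 had 4.43, 3.74 and 6.86 FPKM in CCL3 libraries, against 2.07, 1.90 and 3.22 FPKM in control libraries (log2 fold change 0.81 ± 0.23 SE, adjusted p = 0.0308). It was lost without CCL3 replicates 1 and 3 or control replicates 1 and 2 (adjusted p of up to 0.115) and once GC and length were corrected for (adjusted p = 0.123). Slc22a4, which encodes a transporter of the antioxidant ergothioneine, had 2.78, 2.67 and 2.16 FPKM in CCL3 libraries, against 4.69, 3.65 and 3.69 FPKM in control libraries (log2 fold change -0.500 ± 0.15 SE, adjusted p = 0.0373). The call was lost without CCL3 replicates 2 and 3 or control replicates 1 and 2 (adjusted p of up to 0.147). The organic anion transporter gene Slco2b1 had 3.80, 1.52 and 2.82 FPKM in CCL3 libraries and 2.05, 0.957 and 0.534 FPKM in control libraries and did not pass (adjusted p = 0.0834), and the choline transporter genes Slc44a1 and Slc44a2 had log2 fold changes of -0.10 and -0.0083.

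Of 17 proton, bicarbonate and inorganic ion transporter genes 2 rose and 2 fell (background 18.0% and 14.5%). Among the falls was Slc24a5, which passed the filter through control. By TPM scaling 0 rose and 6 fell, by plain totals 0 and 4, and on GC- and length-corrected values 1 and 1. The most expressed was Slc8b1, a mitochondrial sodium and calcium exchanger gene, with 68.8, 50.9 and 55.4 FPKM in CCL3 libraries and 50.5, 54.2 and 52.2 FPKM in control libraries and overlapping groups. Slc12a9, an orphan of the cation-chloride cotransporter family, had a log2 fold change of 0.41 ± 0.13 SE and the anion exchanger gene Slc26a6 of 0.40 ± 0.13 SE, but with TPM scaling these values were -0.10 and -0.05. Slc26a6 was lost when any 1 of the 6 libraries was left out and Slc12a9 without CCL3 replicates 1 and 2 or control replicates 1, 2 and 3, with adjusted p of up to 0.140 and 0.172. Both were lost once GC and length were corrected for (adjusted p = 0.147 and 0.0712). The scaffold gene Slc9a3r1, known as NHERF1, had 165, 138 and 166 FPKM in CCL3 libraries, against 98.01, 98.7 and 128 FPKM in control libraries (log2 fold change 0.53 ± 0.16 SE, adjusted p = 0.0367), which was -0.0012 with TPM scaling, lost without CCL3 replicates 1 and 3 or control replicates 1 and 2 (adjusted p of up to 0.152) and lost once GC and length were corrected for (adjusted p = 0.677).

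Across classes, 19 of 24 listed carriers of lysosomes and endosomes were members. Of these 4 rose, Slc48a1, Slc11a1, Slc37a2 and Slc12a9, and 1 fell (background 18.0% and 14.5%). Scaled to TPM these counts became 1 and 10, by plain totals 1 and 6, and with GC and length corrected 3 and 1. The median log2 fold change of the list was -0.03, as that of all members. The peptide and histidine transporter genes Slc15a3 and Slc15a4, which take part in endosomal Toll-like receptor signalling, did not pass. Slc15a3 had 59.7, 42.6 and 67.9 FPKM in CCL3 libraries and 75.6, 68.95 and 55.6 FPKM in control libraries. Slc15a4 had 26.3, 21.2 and 20.6 FPKM in CCL3 libraries and 23.3, 24.7 and 21.2 FPKM in control libraries. The amino acid transporter gene Slc36a4 was close to the threshold (log2 fold change -0.62 ± 0.21 SE, adjusted p = 0.0511), at 1.68, 2.55 and 1.45 FPKM in CCL3 libraries and 3.88, 4.01 and 2.46 FPKM in control libraries. Slc9a9, an endosomal sodium-proton exchanger gene, had 5.55, 6.70 and 4.64 FPKM in CCL3 libraries and 7.35, 7.31 and 4.76 FPKM in control libraries, with overlapping groups. Slc38a9, the lysosomal arginine sensor gene, was below the filter, with 0.532, 0.533 and 0.520 FPKM in CCL3 libraries and 1.19, 1.06 and 0.779 FPKM in control libraries.

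Carriers of the same protein folds under other symbols, and partner proteins of carriers, are not members and were looked up from lists. Of 37 such carrier genes tested 9 rose and 5 fell (background 18.0% and 14.5%). On the TPM scale these were 2 and 18, by plain totals 5 and 12, and on GC- and length-corrected values 4 and 4. With 1 library left out rises ranged from 5 to 8 and falls from 1 to 5, the fewest of both without control replicate 2. Over all genes, too, both counts were lowest without that library. The largest rise was that of Ucp2, a mitochondrial carrier gene of the SLC25 kind, with 456, 518 and 550.4 FPKM in CCL3 libraries, against 208, 165 and 164 FPKM in control libraries (log2 fold change 1.504 ± 0.15 SE, adjusted p = 0.00310). Mtch1 and Mfsd13a followed, with log2 fold changes of 1.11 and 0.84, and the largest falls were those of the lysosomal transporter gene Mfsd1 (-0.73), Mfsd14a (-0.70) and Tmem165 (-0.63). Of 20 partner and scaffold genes tested 6 rose and 7 fell (background 18.0% and 14.5%). On the TPM scale these were 2 and 10, by plain totals 2 and 9, and on GC- and length-corrected values 4 and 4. With 1 library left out rises and falls each ranged from 2 to 6, the fewest of both without control replicate 2, as over all genes. Bsg, which encodes the chaperone of the lactate transporters MCT1 and MCT4, rose to 371 ± 61.4 FPKM with CCL3, against 229 ± 31.9 FPKM in control (log2 fold change 0.69 ± 0.17 SE, adjusted p = 0.0197). In the Ragulator complex, to which Slc38a9 binds, Lamtor1 rose with 176, 174 and 221 FPKM in CCL3 libraries, against 69.6, 68.6 and 86.4 FPKM in control libraries (log2 fold change 1.33 ± 0.16 SE, adjusted p = 0.00314). Lamtor4 also rose (log2 fold change 0.72 ± 0.19 SE, adjusted p = 0.0230) and Lamtor2 did not pass (log2 fold change 0.28 ± 0.17 SE), while Lamtor3 (log2 fold change -0.93 ± 0.16 SE) and Lamtor5 (-0.81 ± 0.18 SE) and the partner genes Rragc (-0.93 ± 0.22 SE) and Rraga (-0.64 ± 0.20 SE) fell. The transferrin receptor gene Tfrc and the endosomal ferrireductase gene Steap3, which supply iron to Slc11a2, rose as well (log2 fold changes 1.14 ± 0.23 SE and 0.75 ± 0.17 SE).

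The threshold of 1 FPKM divided genes with similar levels. The members just inside were Slc9b2, Slc10a7, Slc39a10 and Slc9a3r2, with means of 1.01, 1.03, 1.07 and 1.12 FPKM. Just outside were Slc24a3, Slc25a15, Slc38a6 and Slc30a9, with means of 0.946, 0.940, 0.918 and 0.893 FPKM. Among these, Slc24a3 had 1.43, 1.36 and 1.43 FPKM in CCL3 libraries and 0.253, 0.583 and 0.605 FPKM in control libraries, and Slc25a15, the mitochondrial ornithine carrier gene, had 0.537, 0.548 and 0.453 FPKM in CCL3 libraries and 1.44, 1.45 and 1.21 FPKM in control libraries.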

How the data were processed

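Messenger RNA libraries of bone marrow-derived macrophages, 3 given CCL3 and 3 control, were sequenced. The authors deposited FPKM values per gene and library. Per the submitters' processing notes the build was mm10. For the aligner, the counter, strand use and the annotation, the sources used here give nothing. Multiplying by gene length gave whole fragments in 100% of cases (tolerance 0.02), from which depth was taken. FPKM is not a count, so values were taken as log2(FPKM + 1), which understates the change of low genes. The 9218 genes averaging 1 FPKM or more were fitted in limma 3.58.1 (R 4.3.3) with a variance trend, two-sided, with Benjamini-Hochberg adjustment and a threshold of 0.05. The procedure was tested on simulated data. Groups follow the sample titles. Alternatives were a pseudocount of 0.1, no filter, TPM scaling, plain fragment totals, median-ratio scaling, quantile normalization, removal of a gene length trend, a replicate block and leaving out each library. Removal of a GC and length trend, with GC content from GENCODE release M21 transcripts, and leaving out both replicates numbered 3 were added after the data were seen.

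The members, classes and gene lists were chosen with earlier results of these data known. Genes were named by a rule: the 10 largest rises and 10 largest falls past the threshold without overlap, up to 3 in each direction per class and list, the most expressed member of each class, the genes nearest 1 FPKM and a list of macrophage genes of interest. The other members past the threshold, Bsg, Lamtor2, Lamtor4, Rraga and the members named as not passing beyond that rule were added after their values were seen. Of the members past the threshold, 1 is not reported here by name.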

Additional observations from a re-analysis of the deposited data

How the results depend on the processing

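The count of members higher with CCL3, 30, was 8 with TPM scaling and 9 with plain fragment totals, and ranged from 11 to 27 when 1 library was left out. The count lower, 21, was 9 with no filter, 70 with TPM scaling, 55 with plain fragment totals and 32 with the replicate block, and ranged from 10 to 24 when 1 library was left out. The other alternatives moved either count of members by at most 1.5 times. Over all genes 1655 were higher and 1335 lower. When 1 library was left out these ranged from 696 to 1873 and from 456 to 1293. TPM scaling turned 8 log2 fold changes below 0: Slc12a9 to -0.0954, Slc25a11 to -0.0658, Slc25a3 to -0.153, Slc26a6 to -0.0498, Slc27a1 to -0.0340, Slc27a4 to -0.0036, Slc39a13 to -0.0132 and Slc9a3r1 to -0.0012. Quantile normalization turned Slc25a3 to -0.0341. Slc7a5, which did not pass, ranged from -0.95 to 0.14 when 1 library was left out, the positive value being without control replicate 3. The scalings act on every gene of a library, and no filter adds genes to the adjustment; for the other alternatives the cause was not tested. Same-numbered libraries had correlations of deviations of -0.06, 0.39 and 0.50. CCL3 replicate 2 had 0.41 with control replicate 1 and -0.54 with control replicate 3. These values do not settle whether same-numbered libraries are pairs, and the main fit did not pair them. With the replicate block 69 members passed, against 51 without it, and 3897 of all genes, against 2990. All 30 rises and 21 falls passed again with the block. Low members, with as few as 17 fragments in a library, are the least precise, and 3 libraries a group limit every test.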
